A study of Mus musculus with 6 samples.

Results

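Autophagy is the process by which a cell encloses part of its own cytoplasm in a double membrane, the autophagosome, and delivers it to lysosomes for breakdown. The 40 genes described here code for its machinery in peritoneal macrophages (PMs), from the kinase complex that starts an autophagosome to the proteins that fuse it with a lysosome. They were taken from a fixed list of symbols, and all 40 had records among the 32879 genes counted. All 40 also passed the filter on low counts, among 10505 genes tested, so no member is missing from the counts below.

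PMs came from female mice and were sorted by surface markers that include F4/80 and high CD11b, with 1 RNA library for each of 6 mice. The 3 control mice were [NZW × BALB/c]F1 animals that do not develop lupus, aged 33, 33 and 30 weeks. The 3 diseased-BWF1 mice were [NZB × NZW]F1 animals aged 31, 31 and 34 weeks, with high anti-dsDNA antibody titers and severe proteinuria. The groups share the NZW parent and differ in the other parent as well as in disease, and strain and disease cannot be told apart. In bulk RNA, fewer cells that express a gene and less RNA in each cell cannot be told apart either.

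Libraries held 3629901 to 5003360 counts, of which 3376669 to 4604336 fell on genes. A count of 3 then equals 0.652 to 0.888 CPM (counts on genes scaled to the same total in each library), a floor that covers counting error only. All 10 macrophage markers were tested, with a summed normalized count (counts divided by the library's size factor) of 144342 to 192327 in the controls and 121162 to 141979 in diseased-BWF1 mice. Lyz2 made up most of these sums, with raw counts of 117085, 107479 and 132760 in the controls against 102132, 87861 and 76604. The markers did not all go the same way. Cd68 had 2442, 2044 and 2346 against 1319, 1145 and 783. Itgam had 32430, 24306 and 18129 against 29106, 24170 and 27489, and Mertk 1032, 706 and 1195 against 903, 1089 and 2054. For other cells, the marker sums in control and diseased-BWF1 mice were 2.29 to 15.5 against 10.2 to 14.2 for 9 T and NK cell genes. For 10 neutrophil genes, 3 of them at 0 in every mouse, the sums were 1240 to 1298 against 794 to 1257. Csf3r made up nearly all of these sums, with raw counts of 1541, 1193 and 1056 against 1288, 1118 and 758. No other neutrophil gene passed 21 raw counts in any mouse, and S100a9 and Ly6g did not pass 2 and 0. For 8 blood monocyte and dendritic cell genes the sums were 324 to 421 against 425 to 542. Mast cell, mesothelial and red blood cell sums did not pass 4.03 in any mouse. The part of these cells in the results was not tested. Library control 3 stood apart by transcript length: its genes with mRNAs under 2 kb deviated from the 6-mouse mean by a median of 0.19 on the log2 scale and those over 6 kb by -0.31, while the medians of the other 5 libraries lay between -0.06 and 0.12 in every length class.

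As background, the ULK kinase complex starts the process, and a class III lipid kinase complex built around Beclin 1 then marks the forming membrane with phosphatidylinositol 3-phosphate. Conjugating enzymes attach ubiquitin-like proteins of the LC3 and GABARAP families to lipid in this membrane, where they recruit cargo receptors and help the closed autophagosome to mature. Macrophages also use part of the machinery for LC3-associated phagocytosis, in which LC3 is coupled to the single membrane around engulfed material such as apoptotic cells.

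The 5 messages of the LC3 and GABARAP families had lower mean values in diseased-BWF1 mice. Their coding ends are shown because the last glycine codon, in capitals, is the place where the proteins are cut by ATG4 and joined to lipid. Each line gives the last 75 coding bases before the stop codon, read 5′ to 3′ on the plus strand of GRCm38 from the GENCODE transcript of the named RefSeq record.
Map1lc3a (chr2:155277560-155277634): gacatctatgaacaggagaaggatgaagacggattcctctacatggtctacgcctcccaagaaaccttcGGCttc
Map1lc3b (chr8:121596693-121596767): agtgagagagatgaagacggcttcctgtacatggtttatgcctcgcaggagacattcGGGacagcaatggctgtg
Gabarap (chr11:69992689-69994521, over 2 coding exons): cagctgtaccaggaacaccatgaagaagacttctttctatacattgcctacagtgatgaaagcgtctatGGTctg
Gabarapl1 (chr6:129538677-129541164, over 2 coding exons): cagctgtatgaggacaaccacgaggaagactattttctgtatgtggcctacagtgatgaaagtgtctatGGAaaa
Gabarapl2 (chr8:111952328-111952402): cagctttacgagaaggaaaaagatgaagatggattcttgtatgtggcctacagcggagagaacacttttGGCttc
A single codon follows the glycine in 4 of the 5 genes, and 5 codons follow it in Map1lc3b. Aligned on that glycine, Gabarap and Gabarapl1 shared 80.6% of 72 bases, Map1lc3a and Map1lc3b 76.7% of 60, and Map1lc3b and Gabarapl1 41.7% of 60. Over whole transcripts, none of the 5 shared a 75-base sequence with another of the 5. With other genes annotated in GENCODE, Gabarapl2 shared 9.53% of its 75-base sequences and Map1lc3b 4.07%, while Map1lc3a, Gabarap and Gabarapl1 shared none. A read within such a stretch fits another gene as well, though the other end of its pair may not. Whether those other genes were among the records counted was not checked.

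No member was called in PMs of diseased-BWF1 mice, a call being a change of 1.5-fold or more with an adjusted p under 0.05. edgeR's quasi-likelihood test called 0 of 40 lower and 0 of 40 higher, against 0.819% and 0.400% of all tested genes, and DESeq2 also called 0 and 0, against 2.28% and 1.27%. The smallest adjusted p among the members was 0.109 with edgeR and 0.0862 with DESeq2, both for Stx17. An unadjusted p under 0.05 was found for 4 members with lower values, where 7.57% of all genes had one, and for 0 members with higher values, where 5.62% had one. The groups did not overlap for 8 members with lower values in every diseased-BWF1 mouse, where 11.1% of all tested genes were so placed, and for 0 members with higher values, where 9.81% were. Values were below 0 for 31 of 40 members (77.5%) and for 49.1% of all tested genes, and the median log2 fold change was -0.11 for the members and 0.01 for all genes. Without library control 3, 24 of 40 members were below 0 and the median was -0.08. Of the 95% intervals, 25 lay entirely within a 1.5-fold change in either direction.

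**Figure D1:**
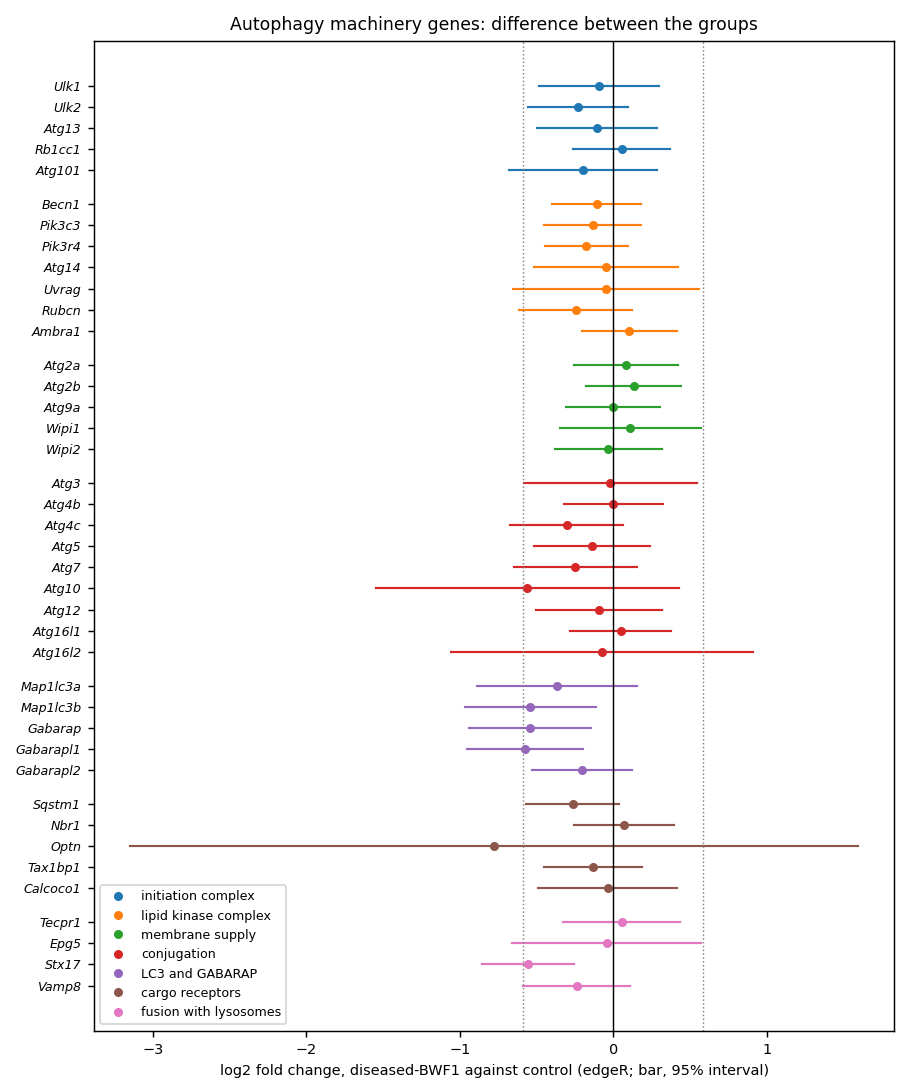
Log2 fold change of each of the 40 members, diseased-BWF1 against control, with its 95% interval from edgeR (3 mice a group), grouped by role; dotted lines mark a 1.5-fold change. The intervals of Map1lc3b, Gabarap, Gabarapl1 and Stx17 lie wholly below 0, and that of Optn is the widest.

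Gabarap, which codes for the founding protein of the GABARAP family, had 880.5, 851 and 1216 normalized counts in the controls and 675, 696 and 665 in diseased-BWF1 mice. The groups did not overlap, and control 3 lay far above the other controls. edgeR estimated a log2 fold change of -0.54 (standard error 0.17, 95% interval -0.94 to -0.15), with an adjusted p of 0.223 in edgeR's test and 0.0962 in DESeq2. Map1lc3b, which codes for the LC3 form most often used as an autophagosome marker, had 609, 625 and 890.4 in the controls and 441, 506 and 522 in diseased-BWF1 mice. Its groups did not overlap either, and control 3 was again the highest. The estimate was -0.54 on the log2 scale (standard error 0.18, interval -0.97 to -0.11, edgeR adjusted p = 0.259). Gabarapl1, a close relative of Gabarap, had 157, 197 and 193 in the controls and 105, 126 and 138 in diseased-BWF1 mice. Here control 3 lay beside control 2, and the groups did not overlap. The estimated log2 fold change was -0.57 (standard error 0.16, interval -0.95 to -0.20, edgeR adjusted p = 0.178).

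Gabarapl2, also called GATE-16, had 188, 191 and 214 normalized counts in the controls and 149, 187 and 181 in diseased-BWF1 mice, so that diseased-BWF1 mouse 2 came very close to the lowest control. On the log2 scale the difference was -0.20 (standard error 0.14, interval -0.53 to 0.12). Map1lc3a, the other LC3 gene, had 76.1, 91.7 and 130.3 in the controls and 76.8, 80.2 and 74.6 in diseased-BWF1 mice. These groups overlapped, since control 1 lay among the diseased-BWF1 mice, and the log2 fold change was -0.37 (standard error 0.22, interval -0.89 to 0.15). For each of the 4 genes without overlap the exact two-sided permutation test gave p = 0.1, the smallest that 3 mice against 3 allow.

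The 5 mRNAs are short, 1112 to 2532 bases, and library control 3 was high for short mRNAs in general. Among all tested genes with mRNAs under 2 kb, 60.7% were below 0 and the median log2 fold change was -0.08, against a median of -0.54 for the 5 genes. Map1lc3b alone of the 5 is longer, and in its class, 2 to 4 kb, 50.4% of genes were below 0. Without control 3 the values of all 5 stayed below 0, with a median of -0.34. They were then -0.12 for Map1lc3a, -0.34 for Map1lc3b, -0.35 for Gabarap, -0.52 for Gabarapl1 and -0.14 for Gabarapl2. With each of the 6 mice left out in turn, values ranged from -0.65 to -0.34 for Map1lc3b, from -0.63 to -0.35 for Gabarap and from -0.68 to -0.47 for Gabarapl1. The part of transcript length in these differences was not tested.

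**Figure D2:**
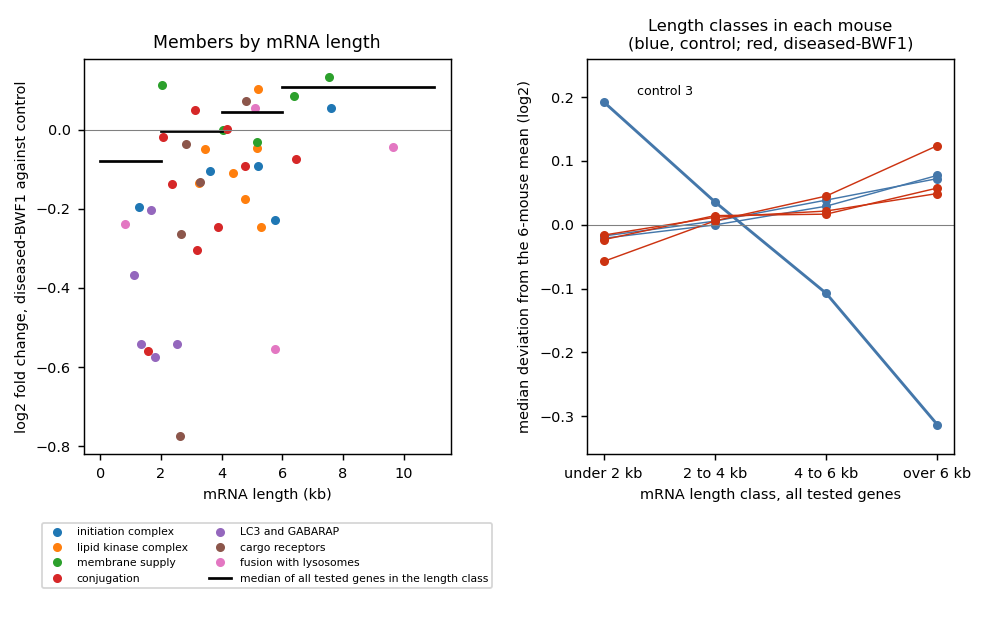
Left, log2 fold change of each member (diseased-BWF1 against control) by mRNA length in kb, coloured by role, with lines for the median of all tested genes in 4 length classes; right, median deviation of all tested genes of each class from the 6-mouse mean (log2) in each mouse. Control 3 runs from 0.19 under 2 kb to -0.31 over 6 kb while the other 5 mice stay near 0, and 4 of the 5 LC3 and GABARAP genes lie far below the line of their class.

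Per kb of mRNA, Gabarap had the highest level of all 40 members, with 615 normalized counts per kb on average over the 6 mice and 492 to 900.2 in single mice. It made up 55.2% ± 1.65 (SD, n = 3) of the summed level of the 5 genes in the controls and 53.8% ± 2.21 in diseased-BWF1 mice. Map1lc3b made up 21.2% ± 0.647 and 20.6% ± 1.07. The share of Gabarapl2 was 9.66%, 9.62% and 7.95% in the controls and 9.98%, 11.5% and 11.4% in diseased-BWF1 mice, without overlap (exact two-sided permutation p = 0.1, the smallest possible, over 5 shares compared). The summed level was 1159, 1181 and 1603 per kb in the controls and 889, 967.5 and 949 in diseased-BWF1 mice, with control 3 standing above the rest.

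**Figure D3:**
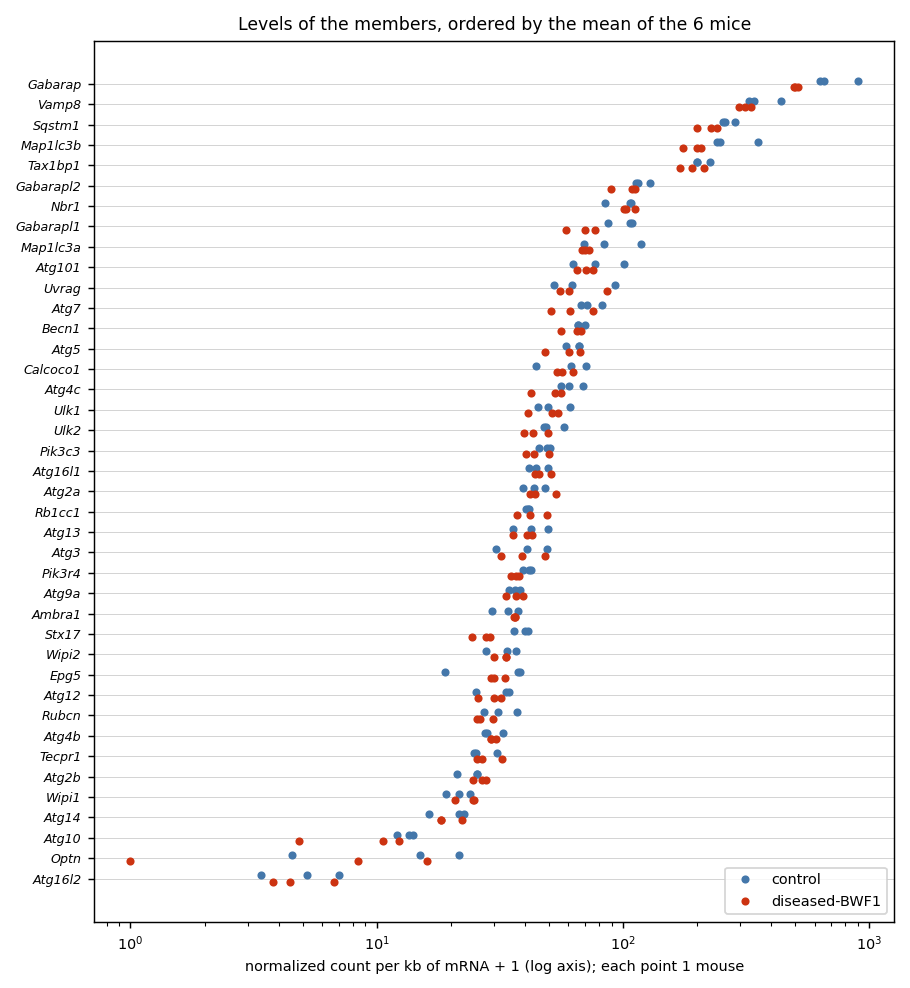
Normalized count per kb of mRNA (plus 1, log axis) of the 40 members in each mouse, ordered by the mean of the 6 mice; blue, control; red, diseased-BWF1. Gabarap leads at 615 per kb, followed by Vamp8, Sqstm1 and Map1lc3b, and Atg16l2 is the lowest at 4.11.

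After Gabarap the order of levels per kb was Vamp8 (340.1), Sqstm1 (243), Map1lc3b (237) and Tax1bp1 (199), each a mean over the 6 mice. Sqstm1 and Map1lc3b did not differ beyond their spread, with 199 to 284 and 174 to 352 in single mice. The lowest members were Atg10 (10.2), Optn (10.1) and Atg16l2 (4.11).

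Among the genes for fusion with lysosomes, Stx17, the autophagosomal SNARE protein, had the smallest adjusted p of all members. It had 231, 226 and 202 normalized counts in the controls and 135, 161.5 and 155 in diseased-BWF1 mice. The groups did not overlap, and here control 3 was the lowest control. Its log2 fold change was -0.55 (standard error 0.13, 95% interval -0.86 to -0.25), with an adjusted p of 0.109 in edgeR's test and 0.0862 in DESeq2. Its mRNA has 5770 bases, a length class whose median log2 fold change over all tested genes was 0.05, and without control 3 the value was -0.60. Counts of Stx17 fell mainly on a curated and a predicted record. The curated record held 58.1%, 65.8% and 73.5% of them in the controls and 69.7%, 100% and 45.5% in diseased-BWF1 mice. Taken alone, curated records gave a log2 fold change of -0.40 for Stx17, with an adjusted p of 0.728 in edgeR's test and 0.929 in DESeq2.

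Vamp8, the lysosomal SNARE partner of Stx17, had the most counts per kb in this group and 279, 267 and 358 normalized counts in the controls against 257, 242 and 271 in diseased-BWF1 mice. Control 2 lay below diseased-BWF1 mouse 3, and the log2 fold change was -0.24 (interval -0.59 to 0.11). Its mRNA has 820 bases, and without control 3 the value was -0.09. Epg5, a tether between autophagosomes and lysosomes, had the most normalized counts of the group, with 351, 360 and 174 in the controls and 312, 280 and 271 in diseased-BWF1 mice. Control 3 alone was low. Its curated record had 0 counts there, against 74.5% to 82.9% of the gene's counts in the other 5 mice. Tecpr1, another tether, had a log2 fold change of 0.05 (interval -0.32 to 0.43).

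Sqstm1, which codes for the cargo receptor p62, had 677, 690 and 759 normalized counts in the controls and 533, 641 and 606 in diseased-BWF1 mice. The groups did not overlap. A log2 fold change of -0.26 was estimated (standard error 0.13, interval -0.57 to 0.04, edgeR adjusted p = 0.446). The remaining receptors overlapped between groups, with log2 fold changes of 0.07 for Nbr1, -0.13 for Tax1bp1 and -0.04 for Calcoco1. Tax1bp1, a receptor for ubiquitin-tagged cargo with the most counts of the group, had 654, 652 and 742 normalized counts in the controls and 555.5, 626 and 696 in diseased-BWF1 mice. Optn, which codes for optineurin, was too low and variable for a comparison, with 44, 9 and 47 counts in the controls and 0, 19 and 39 in diseased-BWF1 mice. Its interval ran from -3.15 to 1.59 on the log2 scale.

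**Figure D4:**
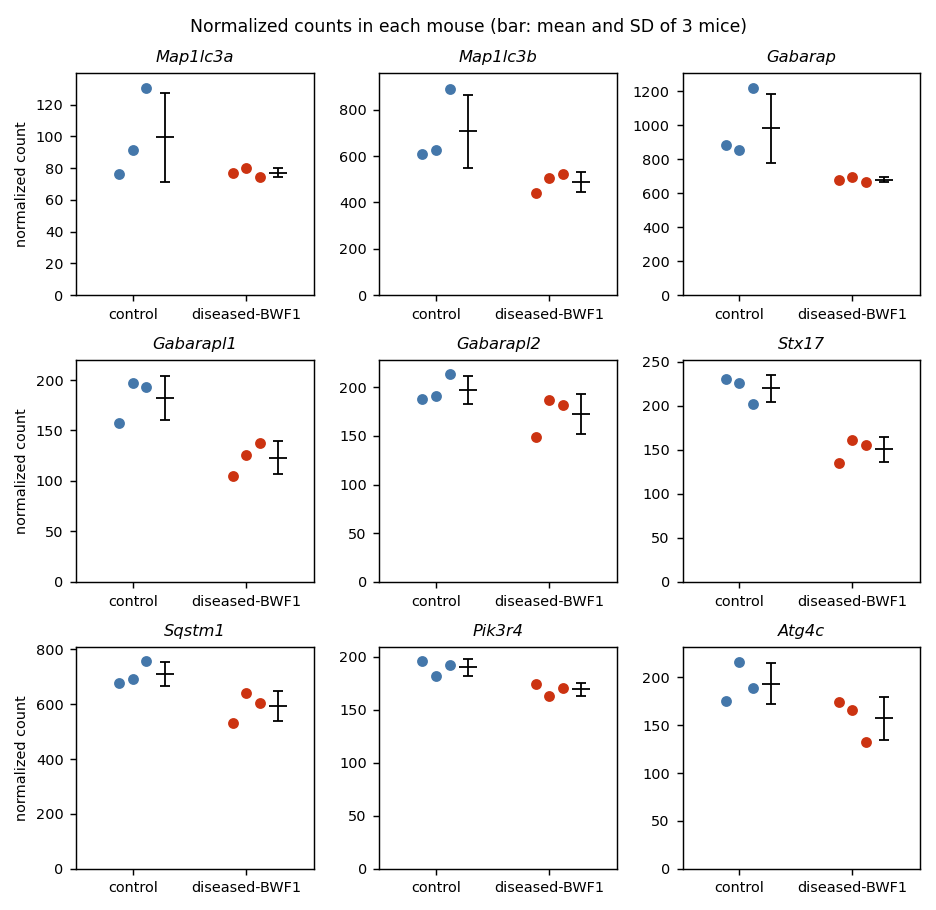
Normalized counts in each mouse for the 5 LC3 and GABARAP genes and for Stx17, Sqstm1, Pik3r4 and Atg4c; points are mice and bars the mean and SD of 3 mice. Groups overlap only for Map1lc3a, and control 3 is the highest control for Map1lc3a, Map1lc3b, Gabarap, Gabarapl2 and Sqstm1.

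In the initiation complex, which holds the ULK kinases and their scaffolds, no group of mice stood clear of the other. Rb1cc1, the scaffold FIP200, had the most counts, with 307, 299.8 and 307.5 normalized counts in the controls and 275, 313 and 368 in diseased-BWF1 mice, and a log2 fold change of 0.06 (interval -0.26 to 0.37). The kinase genes Ulk1 and Ulk2 had log2 fold changes of -0.09 and -0.23, and the adaptors Atg13 and Atg101 of -0.10 and -0.20.

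The lipid kinase complex holds several genes that LC3-associated phagocytosis also needs. Becn1, its scaffold, had 281, 283 and 303 normalized counts in the controls and 279, 239.7 and 290.2 in diseased-BWF1 mice, with a log2 fold change of -0.11 (interval -0.40 to 0.18). Pik3c3, the kinase itself, had 157, 162 and 145 against 128, 138 and 159. Both genes overlapped between groups. Pik3r4, the regulatory subunit of the kinase, had 196, 181 and 192 in the controls and 174, 162.5 and 170.3 in diseased-BWF1 mice. These groups did not overlap, with a log2 fold change of -0.17 (standard error 0.11, interval -0.44 to 0.09).

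Uvrag, a subunit of the form of the complex that acts on endosomes and phagosomes, had the most counts of the group, with 265, 316 and 472 normalized counts in the controls and 281, 306 and 438 in diseased-BWF1 mice. A single mouse of each group was high, and the log2 fold change was -0.05 (interval -0.65 to 0.56). Rubcn, which codes for Rubicon, an inhibitor of autophagy that LC3-associated phagocytosis requires, had 193, 160 and 139 against 135, 152 and 131. Only control 1 lay clearly above the others, and the log2 fold change was -0.24 (interval -0.62 to 0.13). Atg14, the subunit particular to autophagy, and Ambra1, a regulator of Beclin 1, had log2 fold changes of -0.05 and 0.10.

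Among the conjugating enzymes, Atg7, the activating enzyme, had the most counts, with 275, 315 and 258 normalized counts in the controls and 195, 233 and 291 in diseased-BWF1 mice. The estimate was -0.25 on the log2 scale (interval -0.65 to 0.15), and diseased-BWF1 mouse 3 lay within the control range. Atg5 had 154, 136 and 153 against 139, 111 and 155, and Atg12, to which its protein is joined, had 116, 160 and 154 against 118.5, 148 and 138. Atg16l1, which places this conjugate on the membrane, had 136, 127 and 152 against 156, 140.2 and 134. All 3 overlapped between groups, with log2 fold changes of -0.14, -0.09 and 0.05.

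Atg4c, a protease of the family that trims LC3 proteins, had 175.4, 216 and 189 normalized counts in the controls and 174.4, 165.5 and 132 in diseased-BWF1 mice. The groups did not overlap, but the lowest control and the highest diseased-BWF1 mouse were nearly equal. Its log2 fold change was -0.30 (standard error 0.16, interval -0.67 to 0.07). Atg3, the enzyme that passes LC3 to lipid, and the protease gene Atg4b had values of -0.02 and 0.00. Atg10, the enzyme that joins ATG12 to ATG5, had a value of -0.56 on few counts (interval -1.54 to 0.43), and Atg16l2 one of -0.07.

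The 5 genes for membrane supply code for lipid transfer proteins, a scramblase and PI3P-binding proteins, and this was the role group whose median lay above 0, at 0.08. Atg2a, a lipid transfer protein, had the most counts, with 272, 299.8 and 243.5 normalized counts in the controls and 274, 260.0 and 335.5 in diseased-BWF1 mice. Its relative Atg2b had a log2 fold change of 0.13 (interval -0.18 to 0.44), and Wipi1 and Wipi2, which bind PI3P, of 0.11 and -0.03. Atg9a, the scramblase, had a value of -0.00 (interval -0.31 to 0.31). With curated records alone the values were -0.91 for Atg2b, 0.52 for Wipi2, 0.40 for Atg2a and -0.32 for Atg9a, none of them called. The groups overlapped for all 5 genes, and 28.8% of the 75-base sequences of Atg9a also occur in other annotated genes.

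**Figure D5:**
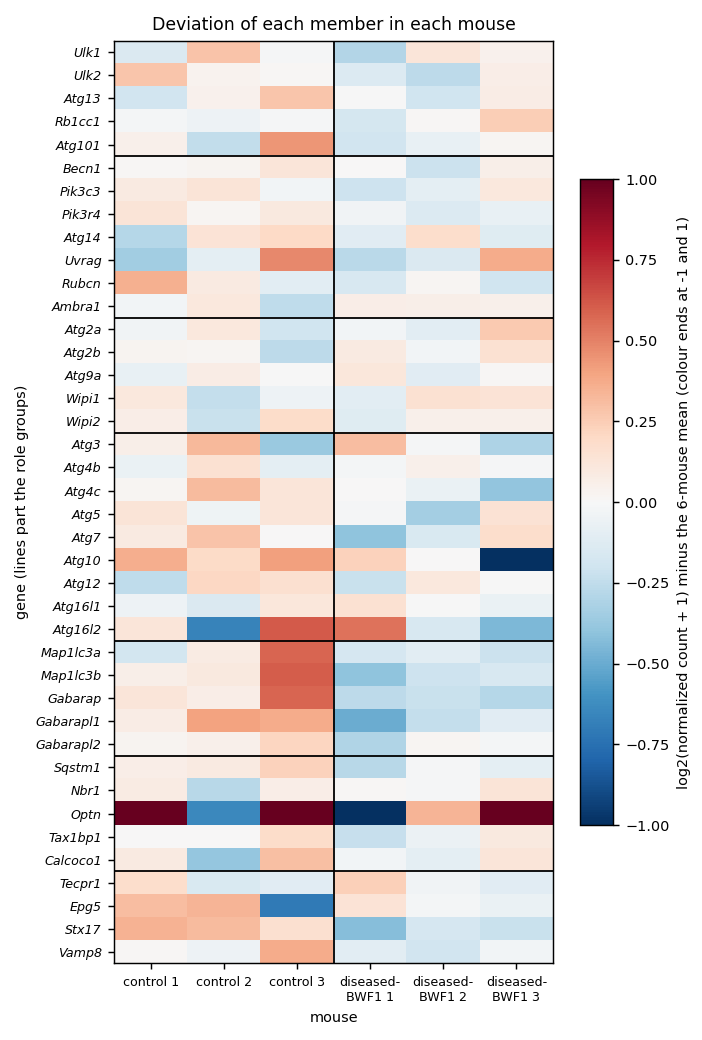
Deviation of log2(normalized count + 1) from the 6-mouse mean for each member (rows, by role) in each mouse (columns); red is above and blue below the mean, with colours ending at -1 and 1. The 5 LC3 and GABARAP rows are below or near the mean in all 3 diseased-BWF1 mice and highest in control 3 for 4 of the 5, and Epg5 is low in control 3.

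The median over the members of a role was -0.54 for the LC3 and GABARAP genes, -0.14 for fusion, -0.13 for cargo receptors, -0.11 for the lipid kinase complex, -0.10 for initiation and -0.09 for conjugation. The 35 members outside the LC3 and GABARAP families had a median of -0.09, with 26 below 0. LC3-associated phagocytosis uses Becn1, Pik3c3, Uvrag, Rubcn, Atg5, Atg7, Atg12 and Atg16l1 before LC3 itself, and these 8 had a median of -0.12 with 7 below 0. Of the 8, 0 had an unadjusted p under 0.05 and 0 had groups without overlap, where 7.57% and 11.1% of all tested genes did so with lower values. The LC3 genes that the process also uses are not among these 8, and of them Map1lc3b had both, as given above. Pik3r4, the regulatory subunit of the kinase, and Atg3, which passes LC3 to lipid, are not among the 8 either. Groups did not overlap for Pik3r4 and overlapped for Atg3, so the count of 0 holds for this list only.

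The files count each RefSeq transcript record, and members had 136 records in all, of which 72 could be tested. None was called by edgeR, where 13 of 20332 records (0.0639%) were, and 5 had an unadjusted p under 0.05, all with lower values, where 3.49% of all tested records had one. The smallest adjusted p was 0.311, for a noncoding record of Epg5. For 19 members with at least 2 records of 10 counts on average, the coefficient of variation within a group, averaged over both groups, had a median of 11.2% for the summed gene and 24.6% for its leading record. The share of counts on the leading record had groups without overlap for 2 of these 19, and for 12.0% of the 4162 tested genes with such records. For Rubcn it was 78.5%, 84.5% and 78.7% in the controls and 85.2%, 84.7% and 89.2% in diseased-BWF1 mice. For Atg9a it was 42.7%, 37.7% and 46.4% against 32.5%, 26.9% and 25.9% (exact two-sided permutation test, p = 0.1 for each, the smallest possible).

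A further list of pathway genes held 66 genes with records, of which 63 were tested. edgeR called 1 lower and 0 higher, where 0.819% and 0.400% of all tested genes were called, and DESeq2 called 2 lower and 0 higher, where 2.28% and 1.27% were. The called gene was Tfe3, which codes for a transcription factor of lysosomal and autophagy genes. It had 824, 704 and 753 normalized counts in the controls and 425, 434 and 363 in diseased-BWF1 mice. The groups lay far apart, and Tfe3 fell by 0.91 on the log2 scale (standard error 0.13, interval -1.22 to -0.60), with an adjusted p of 0.0304 in edgeR's test and 1.56e-06 in DESeq2. With each mouse left out in turn its value stayed between -0.96 and -0.83, and edgeR called it in 0 of the 6 fits, with adjusted p from 0.064 to 0.116. edgeR also did not call it with curated records alone (adjusted p = 0.126) or in a test against a 1.5-fold change (adjusted p = 0.307). Tfe3 was called in 9 of the 18 alternatives fitted on genes. Among these 9 is adjusted p without a fold threshold, which reuses the main fit.

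DESeq2 also called Plekhm1, an adaptor that links autophagosomes to the lysosomal fusion complex. It had 406, 536 and 413 normalized counts in the controls and 318.5, 238 and 236 in diseased-BWF1 mice. edgeR estimated a log2 fold change of -0.78 (standard error 0.18), with an adjusted p of 0.0134 in DESeq2 and 0.106 in edgeR's test. Both genes are also on a list that the study chose on these samples, so their direction is not independent evidence. Values were below 0 for 45 of the 63 genes, with a median of -0.13, and 20 were lower and 1 higher without overlap between groups, where 11.1% and 9.81% of all tested genes were. By group, values were below 0 for 14 of 14 further fusion genes, 9 of 12 further core genes, 7 of 9 further receptors, 5 of 7 transcription factors, 3 of 6 oxidase genes of LC3-associated phagocytosis and 7 of 15 genes that signal to the initiation complex. The fusion gene nearest to 0 was at -0.003 with edgeR and at 0.003 with DESeq2. These counts were not repeated without control 3.

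TFE3 and its relatives bind the sequence CACGTG, which reads the same on both strands, and promoters of the members were searched for it from 250 bases before to 50 bases after the gene start (RefSeq, GRCm38.p6). It occurred in 5 of 33 members with a promoter in the table (15.2%) and in 2187 of 27025 genes of the table (8.09%). The members with it were Atg3, with 2 sites, Atg5, Atg7, Atg14 and Rubcn. The table also holds genes that were not tested for expression, while all members were, so the 2 shares are not like for like. Their difference was not tested. For Atg7 and Rubcn the start used lies well inside the gene span of the RefSeq gene table that served to match records. Their windows are therefore not shown. The other 3 are shown, with the first site of Atg3, because their starts lie at or close to the start in that table. On each side of the motif, in capitals, stand 15 bases.
Atg3 (chr16:45158720-45158755, plus strand): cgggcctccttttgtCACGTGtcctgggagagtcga
Atg5 (chr10:44268310-44268345, plus strand): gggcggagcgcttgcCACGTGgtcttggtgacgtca
Atg14 (chr14:47568415-47568450, minus strand): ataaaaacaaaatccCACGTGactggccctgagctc
The log2 fold changes of Atg3, Atg5 and Atg14 were -0.02, -0.14 and -0.05, and those of Atg7 and Rubcn -0.25 and -0.24. Map1lc3b, Gabarap, Gabarapl1 and Stx17, the 4 members with an unadjusted p under 0.05, are all in the table and did not have these letters in this window. Sites outside the window or with other letters were not searched. The part of TFE3 in the values of any member was not tested.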

How the data were processed

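The 6 files hold raw counts per RefSeq transcript record, as whole numbers deposited by the authors without normalization; each file has 107193 records. The labels list Salmon 0.8.0, DESeq2 and GRCm38.p6 without giving their roles, and whether the counts are rounded estimates is not stated. The stranded libraries were sequenced as paired ends. Records were matched to a RefSeq gene table (86466 matched, 40712 of them with another version, and 20727 unmatched, left out) and summed per gene. Groups were compared with edgeR 4.0.16 in R 4.3.3 (filterByExpr, TMM, glmQLFit, glmQLFTest, Benjamini-Hochberg over 10505 genes). Standard errors were derived from the F statistic. Normalized counts used DESeq2 1.42.0 size factors, 0.875 to 1.21. Errors are SDs over 3 mice. Nothing states whether mice were extracted or sequenced together.

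mRNA lengths and the positions of coding ends come from GENCODE vM21 (GRCm38), and length is that of the longest transcript tied to a curated record. Per-mouse values are given for members whose groups did not overlap, the LC3 and GABARAP genes and the 8 members listed for LC3-associated phagocytosis. They are also given for the member with the most counts in each role (for cargo receptors, Tax1bp1 in raw counts). Further pathway genes are named where edgeR or DESeq2 called them. The members and lists were chosen with earlier results of these data known. Alternatives included DESeq2, limma 3.58.1 (voom), other scalings and filters, age, the replicate block, curated records and each mouse left out. DESeq2 on curated records alone was chosen after seeing the data. The code was tested on simulated data. A sorting marker and a marker list are not reported here.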

Additional observations from a re-analysis of the deposited data

How the results depend on the processing

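No member was called under 18 alternatives fitted on genes or with each record tested on its own. Among the 18, adjusted p without a fold threshold reuses the main fit. With a smallest adjusted p of 0.109 there, it could not call a member. The test against a fold of 1.5 is stricter and keeps the main fold changes, so neither could change a sign. Over the 18, 22 of 40 members kept the sign of their log2 fold change, 20 lower and 2 higher in diseased-BWF1 mice, while 18 uncalled members took both signs. Atg10 and Optn are among the 20, but the filter of at least 10 counts in every library left both out of that fit. The smallest adjusted p of any member was 0.106 with edgeR or limma and 0.0862 with DESeq2. The numbers of all genes called lower and higher, 86 and 42 with edgeR, were 239 and 133 with DESeq2, 162 and 92 with DESeq2 on curated records, 170 and 89 without a low-count filter, 57 and 27 with at least 10 counts in every library, 7 and 9 with curated records alone, 26 and 20 against a fold of 1.5, and 0 and 13 with each record tested on its own. With age as a covariate 53 were lower. With each mouse left out in turn they ranged from 10 to 29 lower and from 11 to 22 higher, with fewer samples. For the other changes the cause was not tested. With the replicate block they were 20 and 18. Deviations of same-numbered mice correlated at 0.107, 0.0014 and 0.152, against at most 0.0551 for mice of different numbers, and 4 of 6 libraries correlated best with their own number. The labels name no shared batch, and whether same-numbered mice shared one was not tested. The main fit did not use the numbers. The block changed no call among the members, and of the pathway genes named it left Tfe3 uncalled (adjusted p = 0.0823). At 3 mice a group, 15 of 40 intervals still reach beyond a 1.5-fold change, and low members such as Optn, Atg10 and Atg16l2 are limited by their counts.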
